A study of Mus musculus with 18 samples.

Results

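The genes examined here are 38 genes of the DNA replication machinery, taken as a list by symbol from the GENCODE M21 annotation of the mouse genome (GRCm38). All 38 were found among 21938 protein-coding genes. They were scored for peaks of the histone demethylase KDM2A and of its substrate, histone H3 dimethylated at lysine 36 (H3K36me2), within 2 kb of any annotated transcription start site (TSS) and over the gene body. The peaks came from ChIP-seq of splenic B cells of Mir155-sufficient (WT) and Mir155-deficient (KO) mice on a C57BL/6J background, the deficiency being carried by all cells of the animal. The cells had been depleted of CD43+, Ter119+ and CD4+ cells and cultured for 2 days at 1% O2 with anti-CD40, F(ab')2 anti-IgM and IL-4, conditions that both genotypes shared and that mimic the signals of positive selection in culture rather than in a germinal centre. Each genotype had 3 libraries per antibody, replicate 1 from a male and replicates 2 and 3 from females, and the KDM2A antibody was non-commercial. Mice in the study were 6 to 25 weeks old, and no age was given for single libraries. The comparison of the genotypes asks whether KDM2A and H3K36me2 at replication genes differ when miR-155, a microRNA studied here as a regulator of Kdm2a, is missing.

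Replication begins when the origin recognition complex (Orc1 to Orc6), Cdc6 and Cdt1 load a double ring of the helicase core Mcm2 to Mcm7 onto DNA. In S phase Cdc45, the GINS complex and Mcm10 turn the ring into an active helicase, polymerase alpha with its primase lays down primers, and polymerases delta and epsilon extend them on the sliding clamp PCNA, which the Rfc complex loads. Most of these genes are transcribed as cells enter S phase under the control of E2F factors, and stimulated B cells switch them on before they divide. KDM2A has a CXXC zinc finger that binds unmethylated CpG, which places it at CpG island promoters, and it removes methyl groups from H3K36me2, a mark that otherwise spreads broadly over active chromatin and is low at such promoters.

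The libraries differed in how much was called. The KDM2A lists held 23372 to 29105 peaks covering 0.770 to 1.11% of the genome in WT and 15387 to 21705 peaks covering 0.433 to 0.715% in KO. The H3K36me2 lists held 85387 to 94136 peaks (4.17 to 5.32% of the genome) in WT, whereas KO replicate 1, the male, had 106720 peaks (3.63%) and KO replicates 2 and 3 had 37447 and 45180 (1.59 and 1.44%). The number of reads was not given with the lists, so depth is unknown and the share of genome called moves with genotype. Its part in the differences below was not tested beyond the rescaled values printed beside them. Among B cell markers, Cd22, Cd79a, Cd79b and Pax5 had a KDM2A promoter peak in all 6 libraries and Ms4a1 and Ebf1 did not, while none of 4 T cell, 3 myeloid, 2 erythroid and 1 NK cell markers did. In such bulk chromatin, a weaker signal in all cells and a signal in fewer cells cannot be told apart.

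The promoters of the replication genes were rich in CpG and in the binding word of E2F. A CpG island lay within 2 kb of a TSS at 35 of 38 genes (92.1%, against 58.8% of protein-coding genes). The exceptions were Orc5, Prim1 and Rfc3. At 11 of 38 genes (28.9%, against 10.6%) the promoter was shared with a protein-coding gene that starts within 1 kb on the other strand. The shortest such distances were those of Orc6 and Vps35 (11 bp), Orc3 and Rars2 (13 bp) and Fen1 and Tmem258 (54 bp), so a peak there belongs to both genes. RefSeq promoters (250 bases before to 50 after a start, GRCm38.p6) matched 31 genes. The genes without one were Mcm4, Gins1, Gins2, Gins4, Prim2, Pole and Rfc2. The median promoter held 23 CpG and 61.3% GC, against 14 CpG and 57% over 16515 genes.

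KDM2A detection rose with the CpG number of promoters over classes of genes, while single replication genes departed from it. The 100 bases before the RefSeq start are printed here 5′ to 3′ with each CpG in capitals, for genes at both ends of the KDM2A range. Pold1 and Cdt1 had the highest KDM2A coverage, Pcna is one of the genes with less coverage in every KO library, Rfc3 had peaks in WT alone, Prim1 had a peak in a single library and Pola1 in none. In GRCm38.p6 the stretches are Pold1 at chr7:44548816-44548915 (minus strand), Cdt1 at chr8:122567915-122568014 (plus strand), Pcna at chr2:132253181-132253280 (minus strand), Rfc3 at chr5:151651209-151651308 (minus strand), Prim1 at chr10:128015115-128015214 (plus strand) and Pola1 at chrX:93632156-93632255 (minus strand).
Pold1: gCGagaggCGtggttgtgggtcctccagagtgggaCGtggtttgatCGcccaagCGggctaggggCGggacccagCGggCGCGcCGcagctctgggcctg
Cdt1: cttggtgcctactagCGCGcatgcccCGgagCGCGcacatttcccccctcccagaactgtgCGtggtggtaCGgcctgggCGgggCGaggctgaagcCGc
Pcna: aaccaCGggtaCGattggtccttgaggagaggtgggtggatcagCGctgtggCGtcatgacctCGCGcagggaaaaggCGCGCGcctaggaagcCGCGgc
Rfc3: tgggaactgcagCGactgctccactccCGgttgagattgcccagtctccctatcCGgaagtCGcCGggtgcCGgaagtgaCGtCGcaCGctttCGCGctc
Prim1: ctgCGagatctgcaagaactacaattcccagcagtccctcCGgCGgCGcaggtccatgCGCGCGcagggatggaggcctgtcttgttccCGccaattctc
Pola1: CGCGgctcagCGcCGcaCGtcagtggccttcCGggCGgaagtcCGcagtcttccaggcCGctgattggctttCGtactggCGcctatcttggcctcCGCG

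The stretch of Pola1, the catalytic subunit of polymerase alpha, held 13 CpG and its whole 300-base promoter 31, yet no library had a KDM2A peak there. Pold1 and Cdt1 held 10 each in the stretch and 24 and 32 in the promoter. Orc3 had 29 CpG and a peak in 1 library, and Cdc45 had 11 and a peak in all 6. At Cdc45 a CpG island lies just beyond the 300-base promoter, at chr16:18812244-18812647. The merged KDM2A interval chr16:18811250-18812703 covers that island, so the 11 CpG understate the CpG under its peaks. Over all genes with a RefSeq promoter the median CpG number was 3 with no KDM2A library, 14 with 1 to 3, 21 with 4 to 5 and 24 with 6, and among the replication genes it was 16 (n = 9), 23 (n = 9) and 25 (n = 12) for the last 3 classes. Pola1 lies on the X chromosome, and the male and female libraries alike had no peak.

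E2F words were searched as TTTCCCGC, TTTCGCGC, TTTGCCGC and TTTGGCGC on both strands, where neighbouring words can overlap. At least 1 was present in 14 of 31 replication gene promoters (45.2%), against 2.97% of 16515 genes and 4.82% of the 7712 genes with an island over the TSS. The word CCAAT, read on both strands, was present in 19 of 31 (61.3%), against 38.6%. The E2F words of 8 genes are shown in capitals within 20 bases, 5′ to 3′, because these genes span the pre-replicative complex, helicase activation and priming, and the full range of KDM2A detection. In GRCm38.p6 they are Orc1 at chr4:108579421-108579440 (plus strand), Cdc6 at chr11:98908007-98908026 (plus strand), Mcm5 at chr8:75109350-75109369 (plus strand), Mcm6 at chr1:128359798-128359817 (minus strand), Mcm7 at chr5:138172035-138172054 (minus strand), Gins3 at chr8:95633512-95633531 (plus strand), Orc3 at chr4:34614970-34614989 (minus strand) and Pola1 at chrX:93632280-93632299 (minus strand).
Orc1: ttagtgGCGCGAAAagtttt
Cdc6: tggagaGCGGGAAAtcgcct
Mcm5: aagaacTTTCGCGCcaaaac
Mcm6: cttttgGCGCGAAAagtgcg
Mcm7: cgaaccGCGGGAAAcagggt
Gins3: tgcggcGCGGGAAAgcgagt
Orc3: cctcccTTTCCCGCacgccc
Pola1: cacaggGCGCCAAAtgcact

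The genes that carry these words had a KDM2A promoter peak in 6 libraries (Mcm6, Mcm7), 5 (Orc1), 4 (Gins3), 3 (Cdc6, Mcm5), 1 (Orc3) and 0 (Pola1). A match to a word is a description of the sequence and not evidence of binding.

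KDM2A occupied most replication gene promoters in WT and fewer in KO. Of the 38 genes, 33, 32 and 30 had a KDM2A peak within 2 kb of a TSS in WT replicates 1, 2 and 3, and 22, 25 and 30 in the KO replicates. WT replicate 3 and KO replicate 3 therefore did not differ in number. All protein-coding genes went from 46.8 to 48.3% in WT to 38.6 to 45.2% in KO, and those with a CpG island from 70.3 to 71.2% to 59.6 to 68.4%. A peak was present in all 6 libraries at 14 replication genes (36.8%), compared with 26.4% of all genes and 42.4% of genes with an island. More WT than KO libraries had a peak at 17 replication genes (44.7%, against 21.1% of all genes and 25.7% of genes with an island), and more KO than WT libraries at 4 (10.5%, against 7.33%). Counted in these shares are genes with no peak in any library, namely 1 replication gene, 39.2% of all genes and 15.0% of genes with an island. Without KO replicate 1 the count with a peak in every remaining library was 18 (against 29.2% of all genes), and at a −log10 q of at least 2 the count with a peak in all 6 was 3 (7.89%, against 10.9%), a share below that of all genes.

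**Figure D1:**
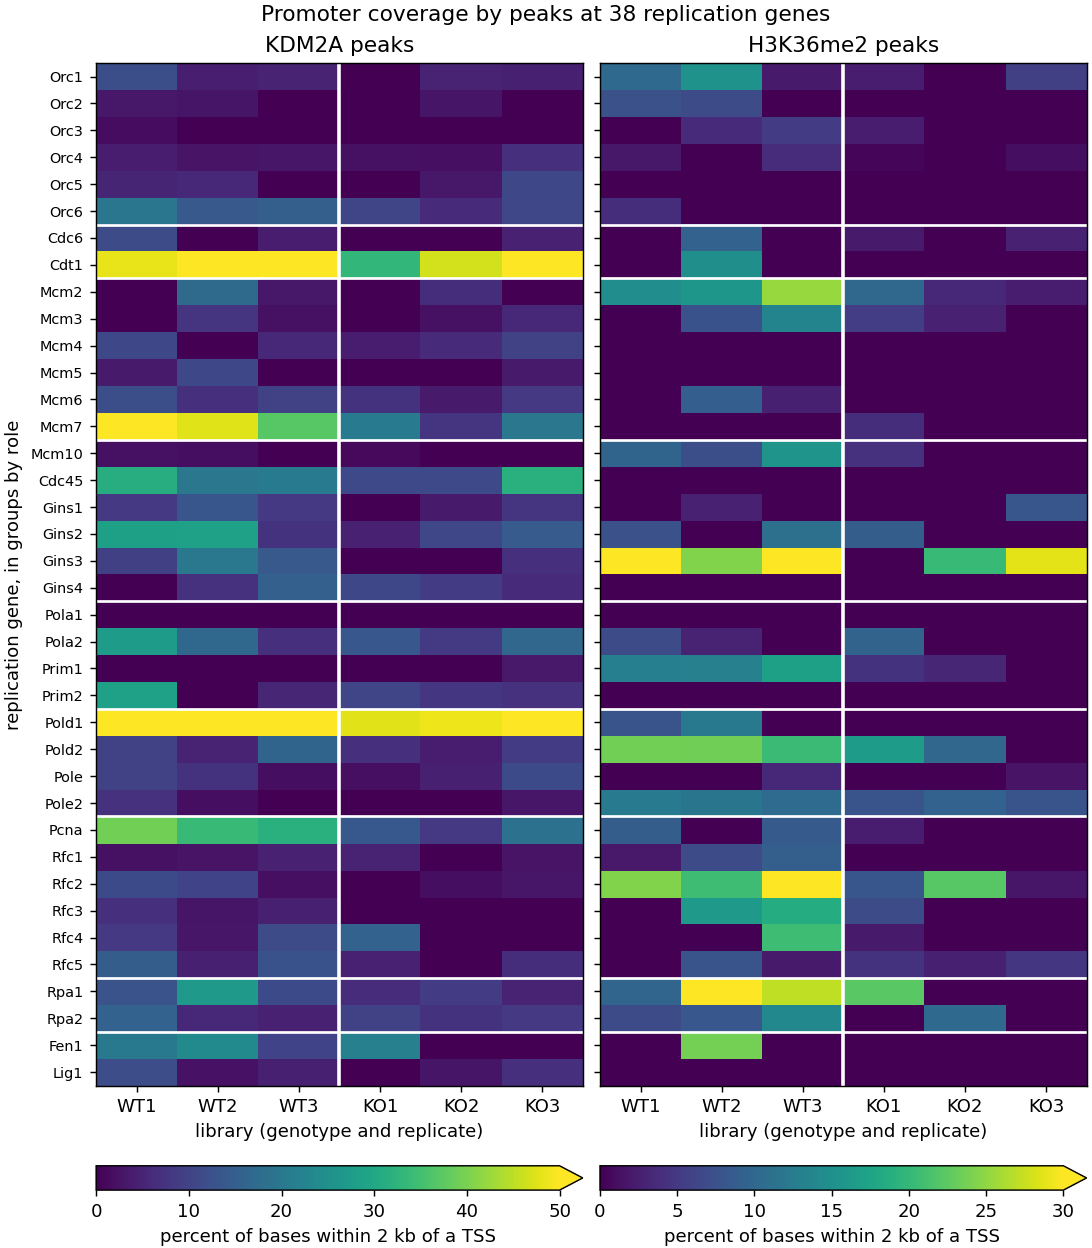
Percent of bases within 2 kb of any TSS under KDM2A peaks (left) and H3K36me2 peaks (right) for the 38 replication genes, 1 column per library, with white lines between role groups and between WT and KO. Values above the end of a colour bar share its last colour. Cdt1, Mcm7 and Pold1 stand out for KDM2A, and KO replicates 2 and 3 of H3K36me2 are mostly at 0.

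Among the licensing factors, Cdt1 carried the widest KDM2A domain and most origin recognition genes carried narrow peaks. Promoter coverage, the percent of bases within 2 kb of any TSS that lie under peaks, was highest among them at Cdt1, which brings the helicase core to origins. Cdt1 had 48.3%, 67.6% and 78.1% in WT and 33.1%, 46.6% and 53.8% in KO. All KO values of Cdt1 but that of replicate 3 were below the lowest WT value, so the groups overlapped. Its partner Cdc6, an ATPase, had 11.4%, 0% and 3.90% in WT and 0%, 0% and 4.57% in KO, with a peak in 2 WT libraries and 1 KO library. Orc6, the smallest subunit of the origin recognition complex, had 19.5%, 14.0% and 15.1% in WT and 10.5%, 6.10% and 10.6% in KO, with every KO library below every WT library. Orc1, the largest subunit and an ATPase, had 12%, 4.11% and 4.84% in WT and 0%, 4.98% and 4.40% in KO. These groups overlapped, since 2 KO libraries exceeded the WT minimum.

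The other subunits of the origin recognition complex were at low coverage in both genotypes. Orc4 had a peak in all 6 libraries at 3.74%, 2.65% and 3.02% in WT and 2.26%, 2.03% and 7.0% in KO, and KO replicate 3 was the highest. Orc5 had 5.27%, 5.48% and 0% in WT and 0%, 3.13% and 10.8% in KO, with 2 libraries of each genotype. Orc2 had 3.25%, 2.88% and 0% in WT and 0%, 2.82% and 0% in KO. Orc3 had a single peak, in WT replicate 1 (1.63%). Over the 6 subunits a peak was present at 6, 5 and 3 in WT and 2, 5 and 4 in KO.

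In the helicase core Mcm7 alone had less KDM2A promoter coverage in every KO than in every WT library. Mcm7 (chr5:138164583-138172422, minus strand) had a coverage of 62.3%, 47.5% and 36.9% in WT and 20.6%, 7.59% and 19.9% in KO, that is 48.9% ± 12.7 in WT and 16% ± 7.30 in KO (SD, n = 3). The KO libraries all lay below the WT libraries, and over the gene body the means were 61.5% and 15.2%. The KDM2A intervals at Mcm7 were chr5:138169789-138173211, which spans the start and the divergent Ap4m1, and chr5:138160822-138167788, which covers the 3′ part of the gene, the microRNA genes Mir25, Mir93 and Mir106b in its introns, and Cops6. The second interval was not weaker in KO, with a fold of 3.15, 3.02 and 3.37 in WT and 3.40, 3.32 and 4.38 in KO (means 3.18 and 3.70). Its peaks in KO replicates 1 and 2 did not reach the TSS windows or the body of Mcm7. Mcm6 had 12%, 6.79% and 9.86% in WT and 7.26%, 3.63% and 8.27% in KO, with peaks in all libraries and overlapping groups.

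The remaining core subunits had sparse peaks. Mcm4, which starts 466 bp from Prkdc on the other strand, had 10.9%, 0% and 5.84% in WT and 4.07%, 5.97% and 9.73% in KO, more KO than WT libraries. Mcm2 had 0%, 17.3% and 3.31% in WT and 0%, 6.64% and 0% in KO, and Mcm3 had 0%, 7.46% and 2.17% in WT and 0%, 2.21% and 5.79% in KO. In both, WT replicate 1 and KO replicate 1, the male libraries, had no peak. Mcm5 had 3.60%, 10.9% and 0% in WT and 0%, 0% and 3.60% in KO. The groups overlapped at each of these 4 genes.

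Among the helicase activators the GINS subunits were uneven. Gins3 had 9.43%, 19.99% and 13.9% in WT and 0%, 0% and 6.90% in KO and Gins1 had 8.28%, 13.4% and 8.37% in WT and 0%, 3.69% and 7.45% in KO, and for both every KO library was below every WT library. Part of the Gins1 value belongs to chr2:150903926-150905021, an interval that overlaps Abhd12 and not Gins1 itself. Gins2 had 28.5%, 28.5% and 7.41% in WT and 4.59%, 10.6% and 14.3% in KO, where WT replicate 3 fell within the KO range. Gins4 had 0%, 7.20% and 15.3% in WT and 10.8%, 8.87% and 5.95% in KO, with a peak in more KO than WT libraries. Cdc45, the helicase subunit that joins GINS, had 31.1%, 19.9% and 20.5% in WT and 11.0%, 11.0% and 31.7% in KO, so KO replicate 3 was above the highest WT library. Mcm10, a scaffold for activation, had 2.33%, 1.84% and 0% in WT and 1.25%, 0% and 0% in KO.

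Among the 4 genes of polymerase alpha and primase, 2, 1 and 2 had a KDM2A peak in the WT libraries and 2, 2 and 3 in the KO libraries. Pola1 was at 0 in all 6 libraries, in the promoter and over the gene body of 327389 bp alike. Prim1, the catalytic primase subunit, had 1 peak, in KO replicate 3 (3.41%). Prim2, the large primase subunit, had 28.7%, 0% and 5.28% in WT and 10.5%, 7.93% and 7.18% in KO, and its WT values ranged more widely than the KO values. Pola2, the B subunit of polymerase alpha, had 27.5%, 16.8% and 6.93% in WT and 13.6%, 8.43% and 16.5% in KO, again with overlap. In the gene body, KDM2A covered 23.3%, 12.7% and 4.30% of Pola2 in WT and 4.82%, 3.96% and 12.8% in KO.

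The polymerase delta gene Pold1 held the broadest KDM2A domain of the list in every library. Its coverage came to 92.6%, 75.3% and 99.7% in WT and 47.7%, 48.7% and 71.3% in KO, and the widest single peak measured 20024, 15660 and 19623 bp in WT and 14051, 10319 and 13801 bp in KO. The median promoter peak of the list was 588 to 865 bp in WT and 596 to 712 bp in KO. The interval chr7:44520778-44544524 (23747 bp) runs from the 3′ part of Pold1 over Spib and Mybpc2, and chr7:44546105-44554363 spans the Pold1 start and Nr1h2. The signal scored at Pold1 lies in a gene cluster that includes Spib, a B cell transcription factor.

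The other polymerase subunits had ordinary peaks. Pold2, the B subunit of polymerase delta, had 9.92%, 4.83% and 16.2% in WT and 6.67%, 3.75% and 8.98% in KO. Pole, the catalytic subunit of polymerase epsilon, had 9.78%, 7.41% and 1.9% in WT and 2.14%, 4.45% and 11.1% in KO, and Pole2, its B subunit, had 7.11%, 1.84% and 0% in WT and 0%, 0% and 2.95% in KO. None of these 3 separated the genotypes in promoter coverage. Over the gene body, KDM2A coverage of Pole was lower in every KO than in every WT library. The same held for Gins1, Mcm6, Mcm7, Pcna, Pold1, Rfc2 and Rfc3. These 8 genes are 21.1% of the list, against 8.63% of all genes and 12.2% of those with an island.

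The clamp and its loader had a KDM2A peak within 2 kb of some TSS throughout in WT and with gaps in KO. All 6 of these genes had a KDM2A promoter peak in each WT library, and 4, 2 and 4 had one in KO. Over all genes 36.9% had one in all 3 WT and 29.4% in all 3 KO libraries, and of those with an island 57.6% and 47.0%. In WT replicate 2 no peak lay over the principal TSS of Rfc1, Rfc2 or Rfc5, and the first at Rfc2 began 10486 bp after it. Pcna (chr2:132249162-132253314, minus strand) had 39.3%, 33.7% and 31.7% in WT and 13.7%, 8.30% and 18.7% in KO, that is 34.9% ± 3.93 in WT and 13.6% ± 5.20 in KO (SD, n = 3), and the KO libraries all lay below the WT libraries. Rfc3 had 6.97%, 2.89% and 4.34% in WT and 0%, 0% and 0% in KO. It was the single replication gene with a peak in all WT and no KO library, a pattern of 0.793% of protein-coding genes, and it is one of the 3 without a CpG island. The small subunits Rfc2, Rfc4 and Rfc5 and the large subunit Rfc1 each had a peak in at least 1 KO library.

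Rfc2 had 11.3%, 10.00% and 2.07% in WT and 0%, 1.85% and 2.94% in KO, Rfc4 had 8.31%, 2.96% and 11.6% in WT and 15.6%, 0% and 0% in KO and Rfc5 had 14.8%, 4.43% and 12.6% in WT and 4.68%, 0% and 6.52% in KO. Rfc1 had 2.31%, 2.69% and 4.61% in WT and 4.89%, 0% and 2.55% in KO. The KO mean was below the WT mean at all 6 genes of the group, but after division by the share of the genome called it was above at Rfc1 (3.61 times the genome share in WT and 4.50 in KO) and Rfc4 (8.19 and 10.6). At Rfc4 the highest library of all was KO replicate 1.

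At the single-strand binding and maturation genes, peaks were present in all libraries for Rpa1 and Rpa2. Rpa1, the large subunit of the protein that coats single-stranded DNA, had 12.7%, 27.0% and 11.2% in WT and 6.35%, 8.78% and 5.02% in KO, every KO library below every WT library. Rpa2 had 15.8%, 5.76% and 4.50% in WT and 9.75%, 7.30% and 8.36% in KO, with overlap. Fen1, the flap endonuclease, had 20.2%, 23.9% and 10.1% in WT and 21.7%, 0% and 0% in KO, so that KO replicate 1 was within the WT range and the female KO libraries had no peak. Lig1, the ligase that seals Okazaki fragments, had 11.8%, 2.37% and 4.37% in WT and 0%, 2.91% and 6.67% in KO.

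**Figure D2:**
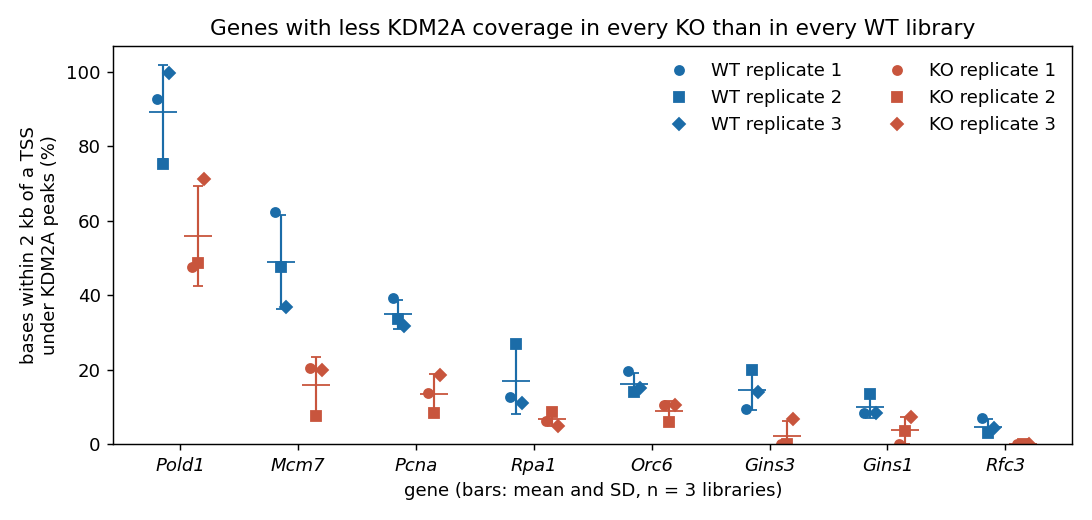
Percent of bases within 2 kb of a TSS under KDM2A peaks for the 8 replication genes whose KO libraries all lay below all WT libraries. Symbols are libraries, horizontal bars the means and vertical bars the SD (n = 3). Mcm7, Pcna and Rfc3 also separate after division by the share of the genome that each library called.

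KDM2A promoter coverage was lower in every KO than in every WT library at 8 of 38 replication genes (21.1%), namely Orc6, Mcm7, Gins1, Gins3, Pold1, Pcna, Rfc3 and Rpa1, against 7.03% of protein-coding genes and 10.2% of those with an island. It was higher in every KO library at 0, against 0.666% of genes. The KO mean lay below the WT mean at 32 of 38 genes and above it at 5. It lay below at 44.9% of all genes (9849, with 3474 above) and 62.7% of genes with an island (8094, with 2868 above). Genes without a KDM2A promoter peak in any library cannot differ and are counted in all these shares. They were 1 replication gene, 39.2% of all genes and 15.0% of genes with an island. After division by the share of the genome called the KO mean lay below at 20 and above at 17 genes, against 25.5% below and 35.2% above over all genes, and 32.2% and 52.8% over genes with an island. Mean coverage of the list was 13.6% in WT and 7.61% in KO, beside 13.6% and 9.91% for genes with an island. Divided by the share of the genome called in the same library, coverage was lower in every KO library at 3 genes, Mcm7, Pcna and Rfc3, against 1.95% of all genes. With each library reduced to an equal number of its strongest peaks it was lower in every KO library at 6, Orc6, Mcm7, Pold1, Pcna, Rfc3 and Rpa1, against 4.23% of all genes. After division by the genome share, coverage of Mcm7 was 56.3, 61.8 and 42.1 times the genome share in WT and 41.8, 17.5 and 27.8 times in KO, and that of Pcna 35.5, 43.8 and 36.1 against 27.8, 19.2 and 26.2 times. Pold1, by contrast, had 83.6, 97.8 and 114 times in WT and 96.9, 112 and 99.7 times in KO, so its direction turned.

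No gene passed the test of KDM2A coverage. With limma and Benjamini-Hochberg adjustment, 0% of the 8372 genes with a mean coverage of at least 5% were called at an adjusted p under 0.05, and 846 had an unadjusted p under 0.05. Of the 22 replication genes tested, 0 were called and 4 had an unadjusted p under 0.05, namely Gins3, Mcm7, Pcna and Pold1. The fitted difference, KO minus WT in percentage points, was −32.9 ± 9.58 (SE) for Mcm7 with a limma adjusted p of 0.414, −33.3 ± 10.2 for Pold1 (adjusted p = 0.426), −21.3 ± 6.56 for Pcna (adjusted p = 0.426) and −12.1 ± 3.91 for Gins3 (adjusted p = 0.429). The difference was below 0 at 20 and above 0 at 2 of the 22, with a median of −6.12 beside −4.53 over all genes tested, and after division by the genome share it was below 0 at 10 and above 0 at 12, with a median of 0.811 beside 3.59. With an equal number of strongest peaks it was below 0 at 13 and above 0 at 7 of 20, and the median of the tested members was −5.87 beside −2.99. For a single gene, an exact permutation test of 3 against 3 libraries cannot go below p = 0.1. The labels do not say that the libraries came from separate cultures, so these p-values measure the spread between these samples only.

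**Figure D3:**
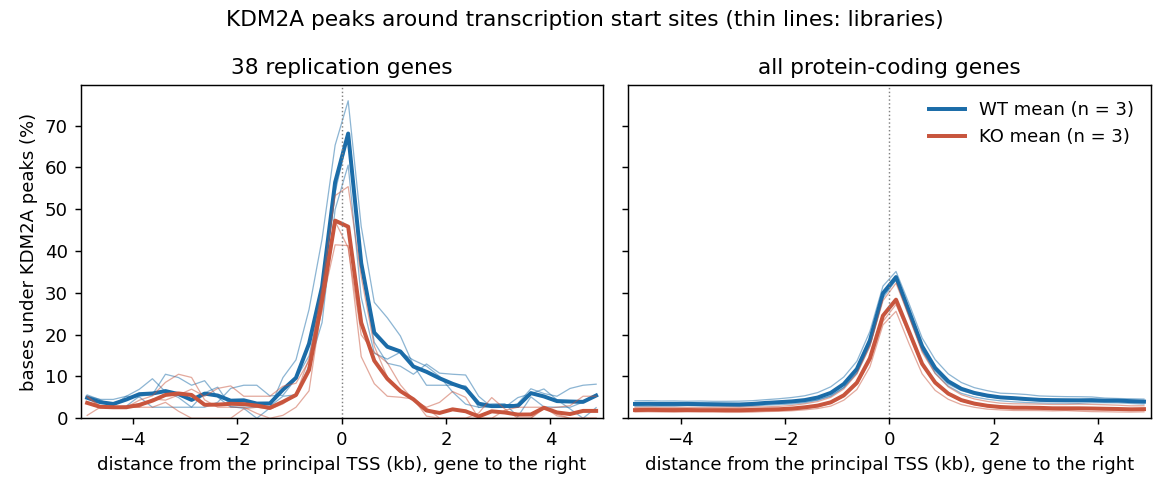
Mean percent of bases under KDM2A peaks in short steps around the principal TSS, for the 38 replication genes (left) and all protein-coding genes (right). Thick lines are genotype means of 3 libraries and thin lines single libraries. In the replication genes the WT curve stays above the KO curve for 2 kb into the gene.

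The KDM2A peaks of replication genes lay around the start, on both sides of it. In the 500 bp before the principal TSS, peaks covered 54.1%, 41.3% and 36.4% of bases in WT and 36.4%, 34.5% and 42.4% in KO. In the first 500 bp after it they covered 60.9%, 52.2% and 44.7% of bases in WT and 30.4%, 28% and 44.6% in KO. From 500 bp to 2 kb they covered 16.7%, 13.0% and 13.6% in WT and 7.97%, 4.26% and 6.45% in KO. More was covered after than before the start in each WT library and in KO replicate 3, and more before than after it in KO replicates 1 and 2. The groups overlapped before the start, WT replicate 3 and KO replicate 3 were alike just after it, and further downstream all KO values were below all WT values. Over all protein-coding genes the 3 stretches were covered to 23.04 to 26.2% in WT and 17.3 to 22.7% in KO, to 28.7 to 31.3% in WT and 21.7 to 28.3% in KO, and to 8.39 to 11.1% and 4.98 to 8.05%.

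Peak strength did not separate the genotypes. The deposited fold, the enrichment of a peak over its local background, was taken from the strongest promoter peak. Over the replication genes with a peak its median took the values 2.87, 3.15 and 3.20 in WT, then 3.26, 2.81 and 2.96 in KO. The highest value in a library ranged from 3.66 to 4.39. For the 14 genes with a peak in all 6 libraries, limma on log2 fold centred on the library median called 0, and 0% of the 5786 genes tested were called (299 had an unadjusted p under 0.05). The differences ran from −0.14 for Mcm7 to 0.21 for Mcm6 on the log2 scale, with a median of −0.01 beside 0.00 over all genes tested.

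Mcm6 had a fold of 2.64, 3.19 and 2.45 in WT and 2.83, 2.77 and 3.61 in KO, and its difference of 0.21 ± 0.11 (SE) had a limma adjusted p of 0.914. Rpa2, at 0.20 ± 0.14, had 3.67, 2.58 and 3.22 in WT and 3.27, 3.40 and 3.63 in KO. Cdt1, at 0.18 ± 0.12, had 3.49, 3.34 and 3.39 in WT and 4.01, 3.47 and 3.60 in KO. Cdt1 was the one gene of the 14 whose centred fold was higher in every KO library, while its coverage was lower on average. That is 7.14% of the 14, beside 5.2% of the 5786 genes tested. The most negative differences among the 14 were those of Mcm7 (−0.14 ± 0.13), Pcna (−0.12 ± 0.13) and Orc4 (−0.11 ± 0.12), with limma adjusted p-values of 0.949 each. Mcm7 had a fold of 3.47, 3.88 and 3.72 in WT and 3.53, 2.62 and 3.55 in KO. Pcna had 2.91, 4.39 and 3.41 in WT and 3.37, 2.93 and 3.00 in KO, and Orc4 had 3.36, 3.46 and 3.25 in WT and 2.91, 2.55 and 3.57 in KO. In all 3 the groups overlapped.

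**Figure D4:**
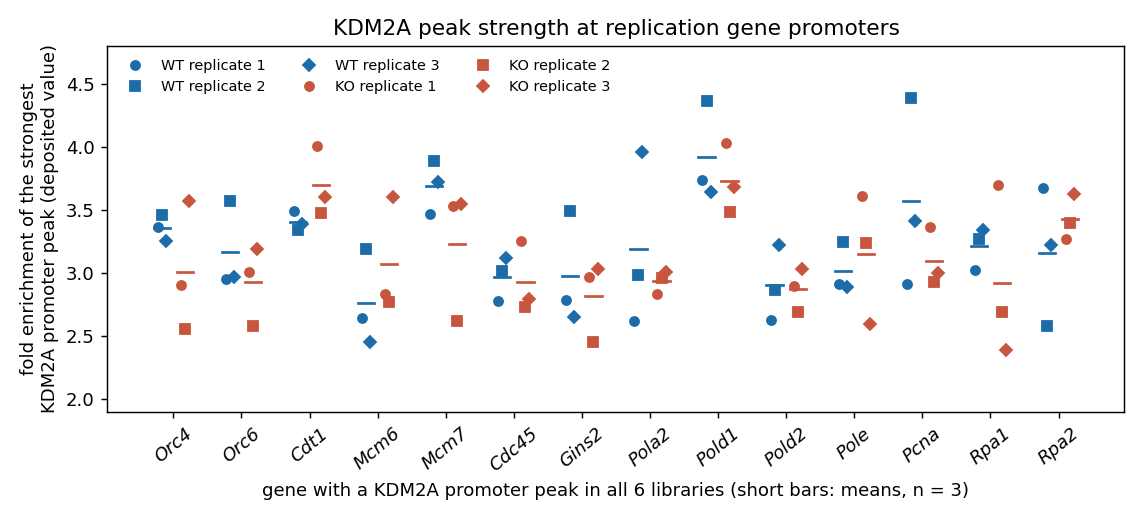
Deposited fold enrichment of the strongest KDM2A peak within 2 kb of a TSS, for the 14 replication genes with such a peak in all 6 libraries. Symbols are libraries and short bars the genotype means (n = 3). WT and KO symbols intermingle for nearly every gene, and all values lie between 2.39 and 4.39.

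The study's rule for enriched KDM2A intervals was then applied at these genes to the deposited fold over local background, where the study divided peak signal by input signal, so the intervals called need not be the same. By that rule a merged interval counts as bound once 2 or more of the 3 libraries of a genotype have a peak, and as enriched when its mean fold exceeds 3 and is 1.17 times that of the other genotype, or when it exceeds 3 and the other genotype is not bound. The replication genes had 44 bound intervals of 16511, of which 26 were bound in both genotypes, 18 in WT alone and 0 in KO alone, beside 55.3%, 35.8% and 8.96% of all bound intervals. The members' 59.1% and 40.9% in the first 2 classes are near those shares. WT-enriched intervals numbered 6 of the 44 (13.6%, against 9.14% of all bound intervals), at Gins1, Rfc3, Rfc4, Rfc5 and Fen1. KO-enriched intervals numbered 0 (against 1.91%).

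At Rfc3 the interval chr5:151650757-151651361, which spans the TSS, had a fold of 2.87, 3.18 and 3.02 in WT and no KO peak. At Rfc4 (chr16:23127376-23128813) the WT folds were 2.46, 3.72 and 3.08 and the single KO peak, in replicate 1, had 3.84. At Rfc5 (chr5:117387575-117389217) they were 2.84, 3.34 and 3.51, with a KO peak of 3.43 in replicate 1. The mean WT folds of Rfc3 (3.02) and Rfc4 (3.09) passed the limit of 3 narrowly, and without WT replicate 2 neither gene met the rule, while Rfc5 did. The single KO peaks of Rfc4 and Rfc5 were stronger than their mean WT fold. Fen1 (chr19:10202950-10204741, shared with Tmem258) had 2.88, 3.37 and 3.33 in WT and 2.77 in KO replicate 1. Gins1 had an interval over its principal TSS (chr2:150909414-150909896) with 3.15, 3.38 and 2.99 in WT and 2.43 in KO replicate 3, besides the one at Abhd12. Leaving out 1 library at a time gave 3 to 11 WT-enriched intervals and 0 to 4 KO-enriched ones.

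H3K36me2 covered little of the bodies of replication genes, and least in the female KO libraries. Peaks covered a mean of 2.39% of gene bodies in WT and 0.795% in KO, beside 6.19% and 2.44% over all protein-coding genes. The median in WT lay the other way, at 1.07% for the list and 0.526% over all genes, and in KO both medians were 0. Genes with an island had medians of 1.95% and 0.383%, above those of the list. At 12 genes (31.6%, against 41.8% of all genes and 28.04% of those with an island) no library had an H3K36me2 peak in the body, namely Mcm3, Mcm4, Mcm5, Mcm7, Orc5, Cdt1, Cdc45, Gins4, Pcna, Pole2, Rfc4 and Lig1. Orc1 and Prim2 were the 2 that reached the mean coverage of 5% needed for the test (5.26% of the list, against 24.4% of genes).

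Prim2, a gene of 215986 bp, had a body coverage of 10.5%, 16.1% and 17.1% in WT and 9.98%, 7.93% and 4.84% in KO, every KO library below every WT library. Orc1 had 5.68%, 11.3% and 4.47% in WT and 3.51%, 6.52% and 3.26% in KO, with overlap. With limma, 0% of the 5342 genes tested were called (1677 had an unadjusted p under 0.05), while 1455 of 5262 were without KO replicate 1 and 24 on log2(percent + 1), with 0 replication genes among them. The difference was −7.01 ± 4.21 percentage points for Prim2 (limma adjusted p = 0.225) and −2.71 ± 2.99 for Orc1 (adjusted p = 0.457). Among females only, Prim2 was called (adjusted p = 0.0477, with 2357 genes called in that fit), and after division by the genome share the difference of both genes was above 0. Coverage was lower in every KO library at 2 replication genes, Prim2 and Rfc1 (5.26%, against 13.3% of genes and 17.1% of those with an island), and higher in every KO library at 0 (against 0.0501%).

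Other body values ranged widely between libraries. Fen1 had 0%, 20.2% and 0% in WT and 0%, 0% and 0% in KO, a single peak in WT replicate 2. Pold2, the highest member in both male libraries, had 11.8%, 2.26% and 0% in WT and 11.1%, 0% and 0% in KO. Rpa1 had 2.11%, 7.07% and 12.1% in WT and 6.75%, 1.59% and 0% in KO. Rfc2 had 9.06%, 2.37% and 11.7% in WT and 0%, 3.21% and 1.08% in KO and Rfc1 had 4.02%, 5.40% and 6.83% in WT and 1.69%, 0% and 1.04% in KO, each with a peak in 5 of 6 libraries. A higher KO than WT mean was found at 3 genes. Pola2 had 0.875%, 2.28% and 0% in WT and 6.51%, 0% and 0% in KO, Gins1 had 0%, 1.19% and 2.06% in WT and 0%, 0% and 3.50% in KO and Pola1 had 0%, 0.0837% and 0% in WT and 0.0602%, 0.0996% and 0.410% in KO. At each of the 3 the groups overlapped.

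H3K36me2 covered a small part of the promoter windows. Mean promoter coverage of the list was 6.98% (WT) and 2.39% (KO) beside 8.27% and 3.21% for all genes. The medians lay the other way, at 4.91% and 0.771% for the list and 1.53% and 0 for all genes. Genes with an island had means of 9.04% and 3.27% and medians of 4.63% and 0.965%. No library had an H3K36me2 promoter peak at 8 replication genes (21.1%, against 42.9% of all genes and 26.8% of those with an island). A peak lay directly over the principal TSS at 3, 3 and 4 genes in WT (7.89 to 10.5%, against 6.08 to 6.91% of all genes) and at none in any KO library (against 0.956 to 4.23%). The highest WT means were those of Gins3, with 30.4%, 24.3% and 34.3% in WT and 0%, 20.2% and 28.7% in KO, Rfc2, with 24.3%, 20.7% and 31.8% in WT and 8.01%, 22.2% and 1.84% in KO, and Rpa1, with 9.77%, 34.1% and 27.1% in WT and 22.3%, 0% and 0% in KO. Rpa1 was the highest member in WT replicate 2 and KO replicate 1, and the groups overlapped at all 3 genes.

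H3K36me2 promoter coverage in every KO library was below that of every WT library at 6 replication genes, Mcm2, Mcm10, Prim1, Pold2, Pole2 and Rfc1 (15.8%, against 11.1% of genes and 14.4% of those with an island), and above it at 0 (against 0.137%). Mcm2 had 14.7%, 15.9% and 25.3% in WT and 10.1%, 3.32% and 2.37% in KO. Prim1, which had no KDM2A peak in WT, had 13.0%, 13.1% and 17% in WT and 4.44%, 3.22% and 0% in KO. Pole2, with the narrowest gap, had 12.5%, 11.7% and 10.5% in WT and 7.83%, 9.39% and 7.85% in KO. When each library was reduced to the same number of its strongest peaks the count was 1, Prim1. Pold2 had 23.6%, 23.5% and 20.4% in WT and 16.6%, 9.90% and 0% in KO, Mcm10 had 9.69%, 7.24% and 15.5% in WT and 4.32%, 0% and 0% in KO and Rfc1 had 2.10%, 6.95% and 9.11% in WT and 0%, 0% and 0% in KO. None of the 11 replication genes tested was called by limma, and 0% of the 7107 genes tested were (1587 had an unadjusted p under 0.05). All 11 differences were below 0, from −3.21 percentage points for Pole2 (limma adjusted p = 0.714) to −16.2 for Rpa1 (adjusted p = 0.291), and the lowest adjusted p was 0.235, for Prim1. Their median of −11.8 was near the −11.7 over all genes tested. Genes could pass the 5% filter through WT, as Mcm10 and Prim1 did, whose KO values were all below 5%. Over all 38 genes the KO mean was below the WT mean at 27 and above it at 3, beside 10672 and 1861 of all protein-coding genes. Divided by the genome share, 7 of the 11 were below 0 and 4 above.

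The H3K36me2 around replication genes was one-sided. In the 20 kb before the principal TSS, peaks covered 12.9%, 16.5% and 17.3% of bases in WT and 12%, 4.37% and 3.20% in KO, above the 8.79%, 10.5% and 10.5% and the 7.36%, 2.88% and 2.75% of all protein-coding genes. In the 20 kb after it they covered 2.66%, 4.02% and 3.47% in WT and 2.38%, 0.789% and 0.454% in KO, below the 6.29%, 7.52% and 7.50% and the 5.23%, 1.70% and 1.57% of all genes. The same order held within each of the 6 libraries. More H3K36me2 before than after the start was found at 24, 23 and 25 of 38 genes in WT and 25, 15 and 18 in KO, and more after at 5, 9 and 6 and at 7, 4 and 3. Over all genes 33.7 to 35.8% in WT had more before and 24.3 to 25.2% more after, and in KO 35.8, 22.7 and 24.9% had more before and 25.5, 14.1 and 15.5% more after.

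**Figure D5:**
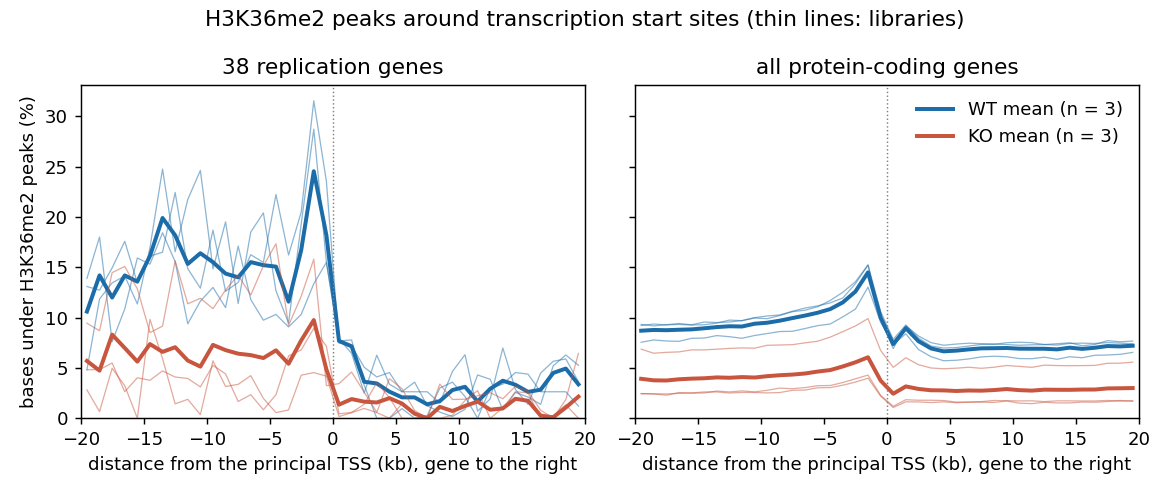
Mean percent of bases under H3K36me2 peaks around the principal TSS, for the 38 replication genes (left) and all protein-coding genes (right). Thick lines are genotype means of 3 libraries and thin lines single libraries. In the replication genes coverage is high before the start and low after it, and KO replicate 1 has the highest KO line over most of the upstream stretch but not next to the start.

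Upstream H3K36me2 coverage was highest at Rfc2, Pold2 and Rfc4, judged by the WT mean. In the 20 kb before Rfc2 it reached 53.0%, 70.4% and 62.1% in WT and 60.4%, 24.0% and 20.05% in KO. Pold2 had 47.9%, 59.0% and 59.8% in WT and 36.9%, 7.96% and 6.38% in KO. Rfc4 had 41.6%, 50.2% and 59.5% in WT and 28.3%, 15.3% and 11.4% in KO. Cdt1 had a WT mean of 44.2%, Pole2 42.9%, Pcna 40.1% and Pold1 36.4%. More after than before the start, by the WT mean, was found at 8 genes, Mcm6, Mcm7, Orc1, Orc3, Orc6, Cdc6, Rfc1 and Fen1. Among them were Cdc6, with 1.10% before and 20.8% after the start in WT, and Orc1, with 0 before and 12.6% after. Cdc45 and Pola1 had no H3K36me2 peak within 20 kb on either side in any library. In a gene-dense region these flanks hold neighbouring genes, whose part in the pattern was not tested.

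KDM2A and H3K36me2 peaks shared few bases in the promoter windows of the list, of which H3K36me2 covered little in all. The bases under both marks were 5.37%, 11.4% and 3.64% of the bases under KDM2A in WT and 2.76%, 0% and 0% in KO. Of the whole windows H3K36me2 covered 5.22%, 7.22% and 7.47% in WT and 3.35%, 1.98% and 1.37% in KO, so its share under KDM2A was above that of the windows in WT replicates 1 and 2 and below it in the other 4 libraries. Shared bases occurred at 5, 8 and 6 genes in WT and at 1, 0 and 0 in KO, where fewer bases lay under either mark.

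Genes of the same pathway outside the list were scored in the same way, from lists written for this purpose. Of 33 other replication factors, such as accessory polymerase subunits, checkpoint and chromatin assembly factors, 13 had a KDM2A promoter peak in all 6 libraries. For this and the 2 lists below, the share was 26.4% over all protein-coding genes and 42.4% over those with an island. None of the 24 other replication factors tested for coverage was called by limma, with a median difference of −3.50 percentage points beside −4.53 over all genes tested. Dscc1, a subunit of an alternative clamp loader, had 3.99%, 21.8% and 6.38% in WT and 0% in each KO library, the pattern of Rfc3. Of 8 nucleotide supply genes 4 had a peak in all libraries and 0 of 7 tested were called. Tk1, thymidine kinase, had 87.4%, 64.6% and 76.5% in WT and 35.1%, 38.1% and 35.3% in KO, and Rrm2, the small subunit of ribonucleotide reductase, had 11.2%, 40.6% and 17.3% in WT and 4.89%, 6.97% and 0% in KO. In the other direction Tyms, thymidylate synthase, had no peak in WT and 9.89%, 0% and 13.1% in KO. Of 13 E2F and RB family genes 8 had a peak in all libraries and 0 of 8 tested were called.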

How the data were processed

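KDM2A and H3K36me2 were measured by ChIP-seq in 12 libraries, 3 per genotype and antibody, of 18 samples in all, the other 6 being input libraries without a list used here. The authors used the nf-core/chipseq pipeline, with BWA on GRCm38 and then MACS2, which called broad peaks against input in each library by itself, with no pooling. Each deposited list gives a fold, a ratio over the local background that is not normalized between libraries, and the deposited −log10 p-value and −log10 q-value of each peak. The deposited score was not used. Reads were not counted in the lists, so depth is unknown and no interval can be given for the fold of a single peak.

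Genes and TSS came from GENCODE M21 (21938 protein-coding genes), the principal TSS being that of 1 transcript per gene, CpG islands from the GRCm38.p6 sequence, and promoters from RefSeq. A peak counted with an overlap of at least 1 bp with the bases within 2 kb of any TSS. Coverage is the percent of these bases, or of the gene body, under peaks. Coverage (genes with a mean of at least 5%) and log2 of the strongest fold (genes with a peak in all 6 libraries, centred on each library's median) were fitted in limma 3.58.1 (R 4.3.3) over all genes, with trended empirical Bayes variances, Benjamini-Hochberg adjustment and a threshold of 0.05. Scripts were tested on simulated data. The rule of the study for enriched intervals was applied to peaks merged over the 6 libraries.

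The members and the other gene lists were chosen with earlier results of these data known. 1 B cell marker is not reported here. Values in every library are given for genes without a KDM2A promoter peak in at least 1 library, the 3 with the largest increase and the 3 with the largest decrease of fold or of H3K36me2 body coverage, genes called by a test or by the study's rule, and 1 gene per role (Orc1, Cdc6, Mcm5, Cdc45, Pola1, Pole, Pcna, Rpa1 and Lig1). Alternatives were other windows (1 and 2.5 kb), peaks by their centre, protein-coding TSS only, a −log10 q of at least 2, an equal number of strongest peaks per library, division by the genome share, no filter on coverage, log2(percent + 1), females only, a replicate block, and leaving out each library.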

Additional observations from a re-analysis of the deposited data

Results flagged for a closer look

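Several replication genes moved one way in the male libraries (KO minus WT, replicate 1) and the other way in each of the 4 comparisons of a female KO with a female WT library, and no test was made of the sexes against each other. The pattern held for 4 of 14 tested members in KDM2A fold (28.6%, against 16.5% of the genes tested), 5 of 22 in KDM2A coverage (22.7%, against 11.4%), 0 of 2 in H3K36me2 bodies (against 29.4%) and 2 of 11 in H3K36me2 promoters (18.2%, against 23.6%), so it was common among all genes too. For the log2 KDM2A promoter fold, centred on the library median, the male difference was 0.0314 for Mcm7, 0.21 for Pcna and 0.29 for Rpa1, where the female mean differences were −0.23, −0.29 and −0.29, and it was −0.16 for Rpa2, where the female mean was 0.38. For KDM2A promoter coverage, in percentage points, it was −6.81 for Mcm4, −18.2 for Prim2 and −6.03 for Rpa2, against female means of 4.93, 4.91 and 2.70. In the other direction it was 7.32 for Rfc4 and 1.5 for Fen1, against −7.27 and −17.0. For H3K36me2 promoter coverage it was 6.87 for Rfc3 and 12.6 for Rpa1, against −17.4 and −30.6. Each genotype and antibody had 1 male library, and the male KO library of H3K36me2 also held the most peaks, so sex and library cannot be told apart.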

How the results depend on the processing

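The absence of calls among the replication genes held under nearly all alternatives. Of 749 values of single genes, 1 passed the threshold, Prim2 in the H3K36me2 body test with females only (1 replication gene, adjusted p 0.0477, among 2357 of 5009 genes called in that fit). With the replicate number as a block, 0 replication genes were called in each of the 4 tests, and the lowest adjusted p-values were 0.376, 0.293, 0.515 and 0.918 for H3K36me2 bodies, H3K36me2 promoters, KDM2A coverage and KDM2A fold. Once each gene's own level within a genotype was taken out, same-numbered WT and KO libraries correlated by −0.05 to 0.08. Libraries with different numbers correlated by −0.08 to 0.07, so same-numbered libraries were no more alike in this respect. The numbers do share sex, since replicate 1 was male in both genotypes. The sizes depended on the setting, and several settings also changed which genes passed the coverage filter. The median difference in KDM2A coverage (−6.12, 22 genes) was −12.7 at a −log10 q of at least 2 (15 genes), 0.811 after division by the genome share (22) and −3.64 with no filter (37). That in H3K36me2 bodies (−4.86, the middle of 2 genes) was 0.881 after that division (2), −2.22 with an equal number of strongest peaks (1), −9.44 with females only (4) and −1.45 with no filter (26), and that in H3K36me2 promoters (−11.8, 11 genes) was −3.97 with an equal number (7) and −4.99 with no filter (30). Without one library it ran from −7.60 to −2.92 for bodies, −12.8 to −8.65 for H3K36me2 promoters and −7.58 to −4.54 for KDM2A coverage.

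Genes lower in every KO library numbered 3 of the 8 for KDM2A coverage after division by the genome share and 8 to 13 without one library, while the share of all genes (7.03%) ran from 9.12 to 13.2%. For H3K36me2 bodies (2) they numbered 0 at the stricter q, 1 after the division, 0 with an equal number and 2 to 6 without one library (all genes 13.7 to 26.0%), and for H3K36me2 promoters (6) 0, 4, 1 and 7 to 11 (all genes 12.01 to 20.5%). Genes with KDM2A in all libraries (14) numbered 3 at the stricter q and 14 to 18 without one library. By the study's rule the 6 WT-enriched intervals of 44 bound became 12 of 30 at the stricter q and 3 (without WT replicate 2) to 11 without one library, while the share of all intervals (9.14%) became 27.5% and 6.44 to 15.7%, and the 0 KO-enriched became 1 at the stricter q, 1 with an equal number (Mcm4) and up to 4 (0 to 4) without one library. The cause was not tested. A percentile rank of the fold could not be used with the rule, which needs the fold itself.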
